A study of Disanthus cercidifolius subsp. longipes with 9 samples.

Results

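Lipid-transfer proteins were followed in the leaves of Disanthus cercidifolius var. longipes, a deciduous shrub of the witch hazel family whose leaves change colour. The members were the transcript clusters of the deposited table whose Swiss-Prot match is named a lipid-transfer protein or lipid transfer protein, together with Cluster-50246.0, which the same name rule also finds. They were 30 of 24385 clusters, of which 14669 have a Swiss-Prot name. Leaves of stage F1 were young leaves at the branch tips, labelled 20 July, leaves of F2 were labelled 23 July and leaves of F3 26 July, with 3 libraries of mRNA per stage. All leaves came from trees of 1 botanical variety with no treatment, and the study's methods name other sampling months than the labels and call the stages young, nearly mature and mature. The methods speak of 3 trees, but the labels do not say which tree gave which library, so the p-values below measure the spread between these libraries, which may be technical. The table held only clusters that the authors had called changed in at least 1 comparison of stages. In whole leaves, fewer cells of a type and less RNA per cell cannot be told apart.

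Lipid-transfer proteins are small secreted plant proteins in which a conserved set of cysteines holds the helices around a greasy cavity that takes up fatty acids and other lipids. In aerial organs they are best known from the epidermis, where soluble and membrane-anchored forms are thought to carry wax and cutin precursors through the wall to the cuticle while the leaf expands. Other members act in signalling: DIR1 of Arabidopsis is needed for systemic acquired resistance, the state of raised defence that spreads from an infected leaf. Glycolipid transfer proteins share the word transfer but not the fold, and move glycolipids between membranes inside the cell.

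By name, 13 members were non-specific lipid-transfer proteins, 9 were forms with a glycosylphosphatidylinositol (GPI) anchor, which ties a protein to the outer face of the plasma membrane, 3 were DIR1, 3 were EARLI1 or pEARLI1-like proteins and 2 were glycolipid transfer protein 1. The 30 clusters carried 22 numbers before the point, and 8 of the non-specific clusters shared the number Cluster-56322. Clusters of 1 number may be copies or variants of a gene that share reads, so their separate values are uncertain. The Pfam column of the table, which the name rule did not use, gave a lipid transfer or protease inhibitor/seed storage/LTP domain in 22 members. The other 8 were Cluster-34648.2 with a glycolipid transfer domain, Cluster-23501.0 with a hydrophobic seed protein domain, Cluster-35610.3 with an FHA domain, which is no lipid-transfer domain, and 5 clusters with none. KEGG matches named other proteins in 5 members: an amine oxidase for Cluster-58716.0, a ubiquitin hydrolase for all 3 EARLI1-like clusters and a calcium antiporter for Cluster-34648.2. The listed lengths ran between 301 and 4020 bases with a median of 934, against 1727 over all clusters.

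Together the members were far higher at F1 and F2 than at F3. Their summed FPKM (fragments scaled for transcript length and library size, a level that can be compared between genes) was 12560, 13360 and 11780 in the F1 libraries, 6604, 6610 and 6442 in the F2 libraries, and 890.3, 841.4 and 769.5 in the F3 libraries. The stages did not overlap. At F1, 46.3% of the summed FPKM came from Cluster-56322.5, which is only 301 bases long and took 6.43% of the members' counts. As a share of all counts in the table the members took 1.16% ± 0.063 in F1, 0.574% ± 0.016 in F2 and 0.134% ± 0.00446 in F3 (SD over 3 libraries here and for all FPKM means below). The table held 8657054 to 14284676 counts per library.

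**Figure D1:**
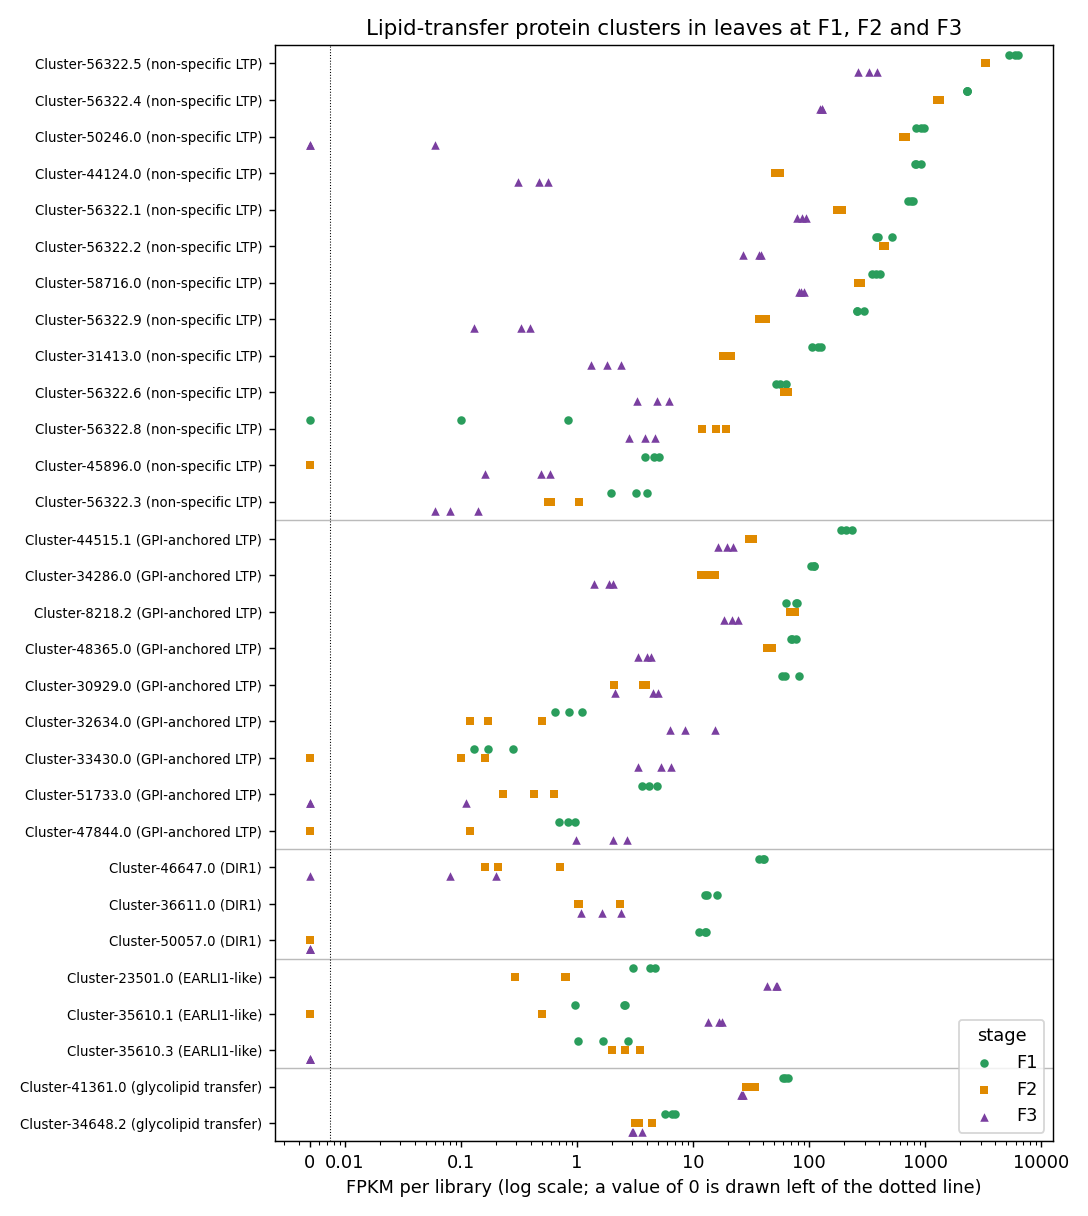
FPKM of the 30 lipid-transfer protein clusters on a log axis, 1 point per library and 3 libraries per stage, with clusters grouped by the kind of protein. The upper non-specific clusters lie above 100 FPKM at F1 and further left at F3, where Cluster-50246.0 is at 0 in 2 of 3 libraries, while 5 clusters of the GPI-anchored and EARLI1-like groups lie to the right at F3.

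A cluster counted as changed if edgeR's quasi-likelihood test over all clusters gave it an adjusted p below 0.05 together with at least a 2-fold change. For F2 over F1, 17 members fell and 1 rose, while 18.8% of all clusters fell and 22.0% rose. For F3 over F1, 24 members fell and 5 rose, with 34.7% and 35.0% over all clusters. For F3 over F2, 18 members fell and 6 rose, with 35.8% and 29.5% over all clusters. The median log2 fold change of the members was -2.0 for F2 over F1, -3.70 for F3 over F1 and -2.02 for F3 over F2, and over all clusters it was 0.17, 0.00 and -0.37. The members' medians were the same when a stage at 0 counts was given 3 counts per library. F1 was the stage of highest mean FPKM for 21 members, F2 for 4 and F3 for 5, and for 30.3%, 28.6% and 41.1% of all clusters. In FPKM the 3 libraries of F2 lay below those of F1 in 24 members (31.9% of all clusters) and above them in 1 (32.5%), those of F3 lay below F1 in 24 (38.8%) and above in 6 (42.3%), and those of F3 lay below F2 in 19 (40.3%) and above in 6 (38.6%). With counts summed over the members that share a number, 13 of 22 numbers fell and 0 rose for F2 over F1. For F3 over F1, 17 fell and 4 rose, and for F3 over F2, 10 fell and 6 rose. Of all single clusters, 18.8%, 34.7% and 35.8% fell and 22.0%, 35.0% and 29.5% rose in these comparisons. In the sum Cluster-56322 counts once, while its clusters count singly among the 18 members that fell for F3 over F2.

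The order of the fall differed between members. Of the 30, 8 fell at both steps (6.03% of all clusters), 5 fell for F2 over F1 and rose for F3 over F2 (5.34%), 1 rose and then fell (7.94%) and 0 rose at both (3.54%). The change of F3 over F2 was then set against the change of F2 over F1 within the same edgeR fit. The second change was lower by a fold of 2 or more in 13 members (34.5% of all clusters) and higher in 10 (20.8%). With counts summed over the members that share a number, it was lower in 7 of 22 numbers and higher in 10. By kind, the second change of the single clusters was lower in 10 of the 13 non-specific clusters and higher in 1. Most of these lower clusters share the number Cluster-56322 and may not be separate genes. The second change was lower in 2 and higher in 5 of the 9 GPI-anchored, and lower in 0 and higher in 2 of the 3 DIR1 clusters. The DIR1 clusters had only 14, 45 and 0 counts at F2, where a second fall as large as the first could hardly be seen. The higher non-specific cluster, Cluster-45896.0, had 0 counts at F2. Of the higher GPI-anchored clusters, Cluster-32634.0, Cluster-33430.0 and Cluster-47844.0 had 11, 5 and 2, but Cluster-44515.1 had 1816 and Cluster-30929.0 had 105. On the log2 scale the median of the second minus the first change was -0.25 over the members and -0.57 over all clusters. Under RLE scaling these medians were 0.08 and -0.23.

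**Figure D2:**
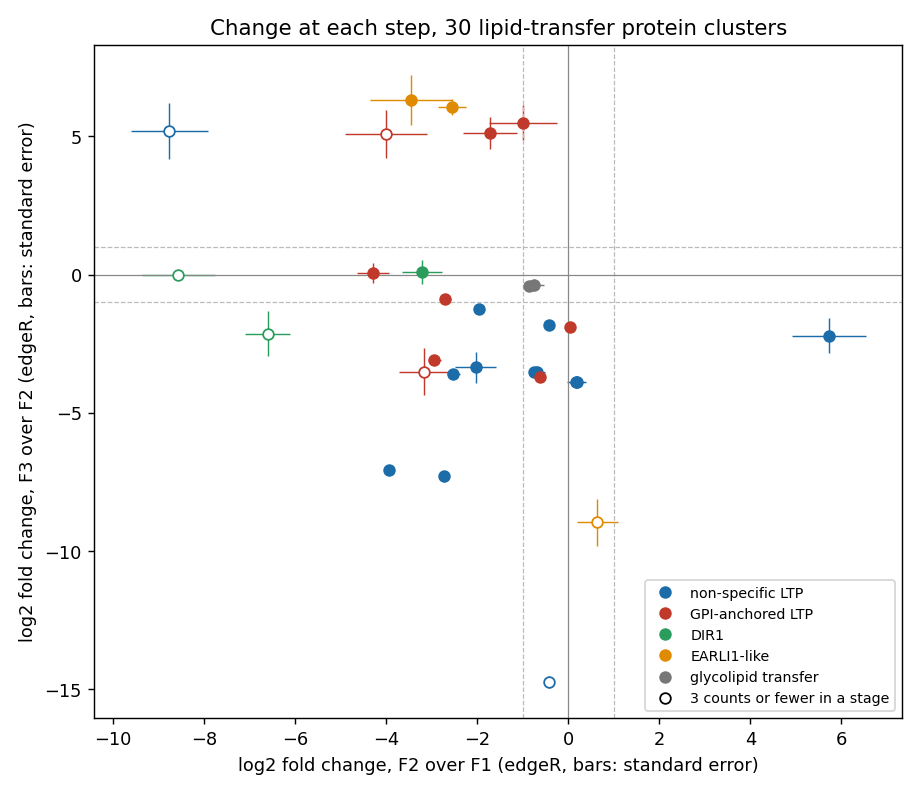
Log2 fold change of F2 over F1 (x axis) against F3 over F2 (y axis) for the 30 clusters, with edgeR standard errors as bars, dashed lines at a fold of 2 and colours for the kind of protein. Open circles have 3 counts or fewer in a stage, where the fitted place depends on the prior count. Most non-specific clusters lie low on the y axis, and 6 clusters lie above 5 on it, among them both EARLI1-like clusters that rose.

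Among the 6 numbers of non-specific proteins, the soluble forms, Cluster-56322 was the highest in FPKM in every stage. Its 8 clusters summed to 9624 ± 597 FPKM at F1, 5337 ± 67.5 at F2 and 582 ± 62.3 at F3. In counts, which grow with length, the longer Cluster-58716.0 was above this sum in every F3 library, with 5561, 6312 and 4980 counts against 4613, 4718 and 3563. Cluster-56322.4, the member with the most counts, had 2291, 2286 and 2307 FPKM at F1, 1300, 1346 and 1272 FPKM at F2, and 129.8, 125 and 130 FPKM at F3. No library of one stage reached another stage. Its log2 fold change was -0.76 ± 0.038 (SE) for F2 over F1 (edgeR adjusted p = 7.03e-07, below the fold of 2) and -3.51 ± 0.042 for F3 over F2 (adjusted p = 1.88e-10). Its change at the second step was 2.75 lower on the log2 scale than at the first (difference -2.75 ± 0.064, adjusted p = 7.51e-09).

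Cluster-56322.5, named for the lettuce allergen Lac s 1, listed the highest FPKM of the family, with 5905, 6261 and 5300 FPKM at F1, 3324, 3289 and 3249 at F2, and 381.5, 325.4 and 264.3 at F3. It is only 301 bases long and its FPKM was made with an effective length of 64.1 bases, on which its level depends. It rests on fewer counts than that of Cluster-56322.4, with 26159 counts over the F1 libraries against 112473. At F1, Cluster-56322.5 took 46.3% of the members' summed FPKM but 6.43% of their counts. Its fold changes were nearly those of Cluster-56322.4, -0.69 ± 0.181 for F2 over F1 and -3.51 ± 0.202 for F3 over F2. Cluster-56322.2, also of 301 bases, had 394.2, 513.3 and 378.9 FPKM at F1, 437.4, 432.0 and 451.7 at F2, and 36.87, 26.95 and 38.31 at F3. F1 and F2 overlapped (log2 fold change 0.16 ± 0.177 for F2 over F1, adjusted p = 0.458), and F3 was lower than F2 by -3.88 ± 0.21. Cluster-56322.6 had the same pattern at a lower level, with 57.0 ± 5.99 FPKM at F1, 63.3 ± 2.47 at F2 and 4.80 ± 1.45 at F3.

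Cluster-56322.1 and Cluster-56322.9, both matched to the same cotton protein, lost most of their level earlier. Cluster-56322.1 had 748.1, 781.9 and 709.8 FPKM at F1, 189.7, 190.7 and 172.4 at F2, and 86.54, 94.74 and 78.27 at F3. It fell by 1.97 on the log2 scale for F2 over F1 (SE 0.0992, adjusted p = 7.11e-07) and by 1.25 for F3 over F2 (SE 0.0983, adjusted p = 4.82e-06). Cluster-56322.9 had 256.9, 297.3 and 260.3 FPKM at F1, 42.54, 39.22 and 36.58 at F2, and 0.39, 0.33 and 0.13 at F3, where it had 14 counts in all. It fell 6.66-fold for F2 over F1 and 158-fold for F3 over F2 (log2 fold change -7.30 ± 0.202).

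Cluster-56322.8, matched to the same cotton protein, was the 1 member that rose for F2 over F1. It had 0.10, 0.00 and 0.84 FPKM at F1, 19.38, 11.97 and 15.71 at F2, and 2.83, 4.71 and 3.87 at F3, without overlap. The log2 fold change was 5.72 ± 0.813 for F2 over F1 (adjusted p = 0.000415), on 15 counts at F1 (8.69 without F1 replicate 3), and -2.21 ± 0.641 for F3 over F2 (adjusted p = 0.0126). Cluster-56322.3 stayed at 3.07 ± 1.03 FPKM or less in each stage and fell at both steps. Within the number, the share of counts in Cluster-56322.4 was 57.8% ± 2.12 at F1, 66.5% ± 1.23 at F2 and 49.4% ± 3.5 in F3 libraries, and that in Cluster-56322.1 was 19.6% ± 0.38, 9.76% ± 0.286 and 34.5% ± 1.96. With the 8 clusters summed and refitted, the log2 fold change was -0.97 ± 0.067 for F2 over F1, which did not reach the fold of 2, and -3.08 ± 0.072 for F3 over F2 (adjusted p = 3.05e-09).

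**Figure D3:**
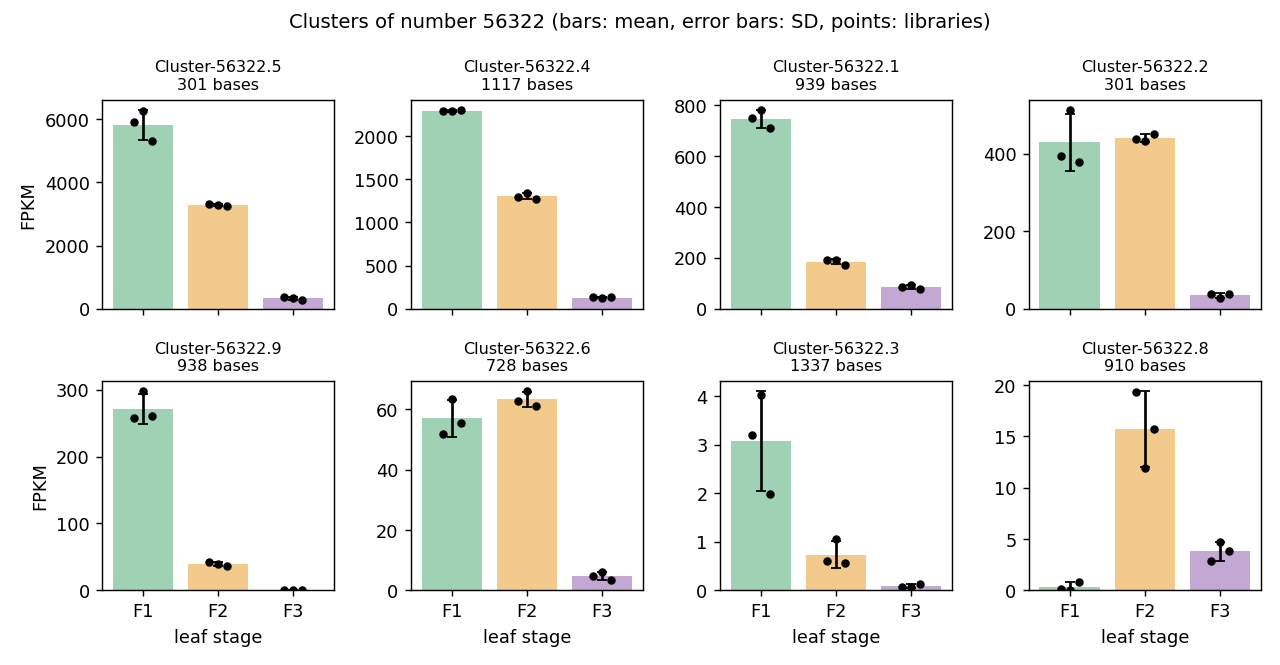
FPKM of the 8 non-specific lipid-transfer protein clusters of number Cluster-56322 at F1, F2 and F3, each panel on its own linear axis, with bars for the mean, error bars for the SD and points for the 3 libraries. Cluster-56322.5 and Cluster-56322.4 are a little lower at F2 and far lower at F3, Cluster-56322.2 and Cluster-56322.6 are level between F1 and F2, Cluster-56322.1 and Cluster-56322.9 are already low at F2, and Cluster-56322.8 has its highest bar at F2.

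Cluster-50246.0, matched to non-specific lipid-transfer protein 2 of a wild tomato, was present at F1 and F2 and nearly absent at F3. It had 919.0, 980.6 and 839.9 FPKM at F1, 667.9, 677.0 and 643.8 at F2, and 0.00, 0.06 and 0.00 at F3. Behind these stood 46284 counts in the F1 libraries, 35386 in the F2 libraries and 1 in the F3 libraries. For F2 over F1 it was lower in every library, with a log2 fold change of -0.42 ± 0.0929 (adjusted p = 0.00512) that stayed under the fold of 2. The ratio of normalised counts of F2 to F3 was 37925, with a 95% counting interval between 6806 and 1498015, since it rests on 1 count (edgeR adjusted p = 3.13e-10).

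The shape of the profile over the 9 libraries, whatever the size of the fall, was not particular to Cluster-50246.0. Of 4565 named clusters with at least 10 FPKM in a stage, 181 had a Pearson correlation with it above 0.99 on log2(FPKM + 1). A correlation does not measure the size of the fall. The points share their libraries and fall into 3 stages, so this is a description. The 5 most alike were anthocyanidin reductase (Cluster-52032.0, r = 0.9999), which makes building blocks of condensed tannins, naringenin 3-dioxygenase (Cluster-54762.0, r = 0.9998), an early flavonoid enzyme, a rhamnogalacturonan I rhamnosyltransferase (Cluster-37348.0, r = 0.9996), which builds pectin, a UPF0481 protein (Cluster-34281.0) and a 14-3-3-like protein (Cluster-56103.0). Their mean levels at F3 differed from each other, with 15.5 FPKM for Cluster-52032.0, 155 for Cluster-54762.0 and 2.93 for Cluster-34281.0. Only Cluster-37348.0, with 0.017, and Cluster-56103.0, with 0, were as nearly absent there as Cluster-50246.0.

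Cluster-44124.0, matched to an almond non-specific protein, began nearly as high as Cluster-50246.0 but fell at both steps. It had 825.9, 917.8 and 819.7 FPKM at F1, 55.87, 56.29 and 50.90 at F2, and 0.47, 0.56 and 0.31 at F3. It fell 15.2-fold for F2 over F1 (log2 fold change -3.93 ± 0.101, adjusted p = 2.53e-08) and 134-fold for F3 over F2 (-7.07 ± 0.154, adjusted p = 2.12e-09), on 25 counts at F3. At F1 the ranges of these clusters overlapped, though within each library Cluster-50246.0 was the higher. At F2 all libraries of Cluster-50246.0 lay above all of Cluster-44124.0. The second change of Cluster-44124.0 was lower than the first by a log2 difference of -3.14 ± 0.223 (adjusted p = 4.26e-06).

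Cluster-58716.0 had the smallest fall for F3 over F1 among the non-specific clusters above 100 FPKM at F1. It had 372.8, 409.8 and 344.2 FPKM at F1, 278.2, 272.8 and 261.2 at F2, and 82.06, 90.14 and 84.52 at F3. Its log2 fold change was -0.43 ± 0.0864 for F2 over F1 and -1.82 ± 0.0892 for F3 over F2 (adjusted p = 2.08e-07). It is 2917 bases long and matches an amine oxidase in KEGG, and whether it encodes a lipid-transfer protein was not tested. It took 43.4% of the members' counts at F3, against 18.2% at F1.

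Of the non-specific clusters left, Cluster-31413.0, matched to an apricot protein, had 117 ± 10 FPKM at F1, 19.6 ± 1.47 at F2 and 1.84 ± 0.541 at F3 and fell at both steps, with log2 fold changes of -2.53 ± 0.142 for F2 over F1 and -3.59 ± 0.175 for F3 over F2. Cluster-45896.0 was low throughout, with 5.05, 4.62 and 3.86 FPKM at F1, 0 counts in the 3 F2 libraries and 0.49, 0.16 and 0.58 FPKM at F3. It was at least 17.2-fold lower at F2 than at F1, taking 3 counts per library as the floor, and at least 1.43-fold higher at F3 than at F2, on 14 counts at F3. Its call for F3 over F2 was not made on log2(FPKM + 1) (difference 0.48).

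Of the 9 GPI-anchored members, 6 fell and 2 rose for F3 over F1, beside 34.7% and 35.0% of all clusters. Cluster-44515.1 matches LTPG1 and Cluster-34286.0 matches LTPG2, which in Arabidopsis act in bringing wax to the cuticle of the stem. Cluster-44515.1 had 208.8, 231.7 and 189.5 FPKM at F1, 30.11, 30.99 and 32.66 at F2, and 21.86, 16.26 and 19.48 at F3. It fell 6.52-fold for F2 over F1 (log2 fold change -2.70 ± 0.116, adjusted p = 2.79e-07). For F3 over F2 its change was -0.87 ± 0.115 (adjusted p = 0.000148), under the fold of 2, and without F3 replicate 1 it was -1.0 and called. Cluster-34286.0 had 103.4, 110.6 and 109.7 FPKM at F1, 11.60, 13.71 and 15.56 at F2, and 1.40, 2.04 and 1.89 at F3.

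The clusters matched to these wax carriers were thus both low at F2, and no library of a later stage reached an earlier one. Cluster-34286.0 fell 7.67-fold for F2 over F1 (-2.94 ± 0.139, adjusted p = 4.82e-07) and 8.55-fold for F3 over F2 (-3.10 ± 0.165, adjusted p = 3.7e-07). Cluster-30929.0, matched to LTPG15, known from suberin of the Arabidopsis seed coat, had 61.27, 81.09 and 58.35 FPKM at F1, 3.72, 3.90 and 2.09 at F2, and 2.12, 4.50 and 5.03 at F3. It fell 19.6-fold for F2 over F1 (-4.29 ± 0.359, adjusted p = 1.57e-05). Its F2 and F3 libraries overlapped (0.07 ± 0.36, adjusted p = 0.872).

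Cluster-8218.2, matched to LTPG31, had 77.39, 63.41 and 78.22 FPKM at F1, 68.88, 70.31 and 75.99 at F2, and 18.39, 21.75 and 24.58 at F3. F1 and F2 overlapped (0.03 ± 0.109, adjusted p = 0.856), and F3 was 3.73-fold lower than F2 (-1.90 ± 0.115, adjusted p = 8.44e-07). Cluster-48365.0, matched to LTPG6, had 71.22, 77.65 and 69.57 FPKM at F1, 47.17, 47.92 and 43.37 at F2, and 4.03, 4.35 and 3.35 at F3. It lay lower at F2 than at F1 by less than a fold of 2 (-0.61 ± 0.105, adjusted p = 0.00125), and fell 13.1-fold for F3 over F2 (-3.71 ± 0.123, adjusted p = 1.92e-08). Cluster-51733.0, matched to LTPG14 and in the NR database to YLS3, named in Arabidopsis for its RNA in yellowing leaves, had 4.21 ± 0.629 FPKM at F1, 0.43 ± 0.2 at F2 and 0.037 ± 0.064 at F3, with 1 count at F3. It was called lower already for F2 over F1 (-3.16 ± 0.554, adjusted p = 0.00141).

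Cluster-32634.0 (matched to LTPG5), Cluster-33430.0 (LTPG20) and Cluster-47844.0 (LTPG15) ran the other way at F3. Cluster-33430.0 and Cluster-47844.0 lay below the level for naming and were chosen after their values were seen. Cluster-32634.0 had 0.85, 0.65 and 1.11 FPKM at F1, 0.12, 0.17 and 0.50 at F2, and 15.36, 8.51 and 6.29 at F3. F3 lay above both earlier stages in every library, 34.9-fold over F2 (log2 fold change 5.13 ± 0.581, adjusted p = 5.77e-05, and 5.86 without F2 replicate 3) and 10.6-fold over F1. Its fall for F2 over F1 (-1.72 ± 0.585, adjusted p = 0.0349) rested on 11 counts at F2 and was not called without F1 replicate 1 (-1.74), F1 replicate 3 (-1.51), F2 replicate 1 (-1.39) or F2 replicate 2 (-1.47), while without F2 replicate 3 it was -2.45. Cluster-33430.0 had 5.04 ± 1.59 FPKM at F3, and at most 0.28 FPKM in an F1 or F2 library. Cluster-47844.0 had 1.91 ± 0.869 FPKM at F3, 0.04 ± 0.0693 at F2 and 0.83 ± 0.13 at F1, with 2 counts at F2, and was not called for F3 over F1 (adjusted p = 0.139).

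The 3 DIR1 clusters were all high at F1 and low at F2. Cluster-46647.0 had 40.62, 37.25 and 39.84 FPKM at F1, 0.16, 0.72 and 0.21 at F2, and 0.00, 0.08 and 0.20 at F3. It fell 96.9-fold for F2 over F1 (-6.60 ± 0.492, adjusted p = 7.62e-06), and without F2 replicate 2 the log2 fold change was -7.61. F3 and F2 overlapped, and the call there (-2.14 ± 0.804, adjusted p = 0.0368) rested on 3 counts at F3 and 14 at F2. The ratio of normalised counts of F2 to F3 was 5.0, with a 95% counting interval between 1.4 and 27.1. The call did not hold without F1 replicate 1 (-2.16), F1 replicate 2 (-2.14), F1 replicate 3 (-2.14), F2 replicate 2 (-1.13), F3 replicate 1 (-1.62) or F3 replicate 2 (-2.12). Nor was it made under RLE scaling (-1.98), with library sizes implied by FPKM (-1.99) or with the replicate block (-2.09). It also failed with the 2 stages alone (-1.95) and with limma on log2(FPKM + 1) (-0.30) and log2(FPKM + 0.1) (-1.20).

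Cluster-36611.0 had 13.16, 16.11 and 12.68 FPKM at F1, 1.03, 1.02 and 2.33 at F2, and 1.64, 2.40 and 1.08 at F3. It fell 9.34-fold for F2 over F1 (-3.22 ± 0.438, adjusted p = 0.00032), and F3 overlapped F2 (0.10 ± 0.437, adjusted p = 0.837). Cluster-50057.0 had 12.54, 12.79 and 11.32 FPKM at F1 and 0 counts in all 6 libraries of F2 and F3. It was at least 15.1-fold lower at F2 than at F1 and at least 16.5-fold lower at F3 than at F1. Its length of 398 bases and 137 counts at F1 set these limits.

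The EARLI1-like members, relatives of an aluminium-induced cell wall protein of Arabidopsis, counted 2 that rose and 1 that fell for F3 over F2. Cluster-23501.0 had 4.22, 3.03 and 4.73 FPKM at F1, 0.81, 0.78 and 0.29 at F2, and 43.15, 52.48 and 51.59 at F3. It fell 5.86-fold for F2 over F1 (log2 fold change -2.55 ± 0.302, adjusted p = 0.000139) and rose 66.7-fold for F3 over F2 (6.06 ± 0.305, adjusted p = 2.57e-07), and F3 was 11.4-fold above F1 (3.51 ± 0.254). At F3 it took 6.38% of the members' counts, against 0.05% at F1.

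Cluster-35610.1 followed the same course, with 0.97, 2.55 and 2.57 FPKM at F1, 0.50, 0.00 and 0.00 at F2, and 16.69, 17.79 and 13.38 at F3. It rose 79.4-fold for F3 over F2 (6.31 ± 0.901, adjusted p = 0.000252). The 9 counts behind F2 all lay in replicate 1, without which F2 is at 0 counts, and without F2 replicate 2 the log2 fold change was 5.67. Cluster-35610.3, matched to the same pEARLI1-like protein, had 1.66, 1.01 and 2.75 FPKM at F1, 2.01, 2.58 and 3.52 at F2 and 0 counts at F3, at least 21.9-fold lower than at F2. This cluster has the FHA domain, and 4 other clusters of number Cluster-35610 are matched to MYB12, IAA16 and a phosphorylmutase, so the number does not hold 1 gene.

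**Figure D4:**
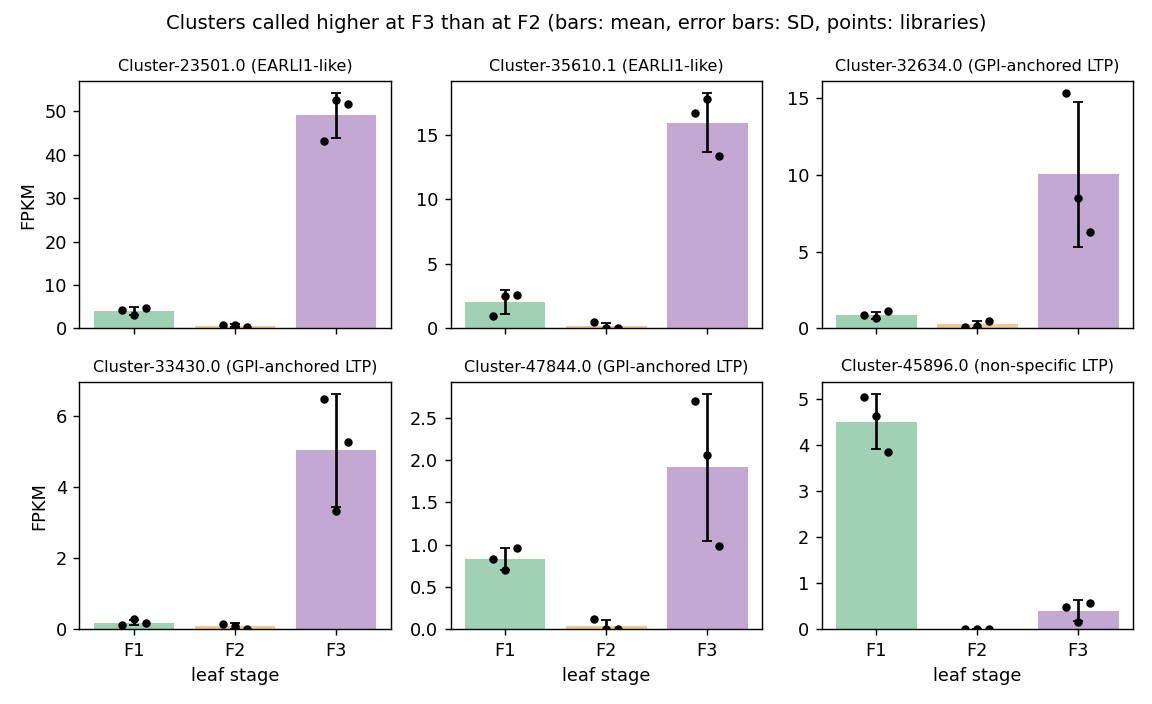
FPKM of the 6 lipid-transfer protein clusters that were called higher at F3 than at F2, each panel on its own linear axis, with bars for the mean, error bars for the SD and points for the 3 libraries of F1, F2 and F3. Cluster-23501.0 reaches the highest level at F3, between 43.15 and 52.48 FPKM, and Cluster-45896.0 differs from the other 5 in that F1 is its highest stage.

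Both glycolipid carriers fell for F3 over F1 and were called in neither of the single steps. Cluster-41361.0 had 59.07, 65.13 and 61.35 FPKM at F1, 34.18, 31.68 and 28.74 at F2, and 25.70, 27.04 and 26.48 at F3. Its log2 fold change was -0.87 ± 0.0892 for F2 over F1 (adjusted p = 5.58e-05), under the fold of 2, and -1.29 ± 0.0902 for F3 over F1 (adjusted p = 1.77e-06). Under RLE scaling the first of these was -1.05 and called. Cluster-34648.2, also chosen after its values were seen, had 6.41 ± 0.667 FPKM at F1, 3.68 ± 0.641 at F2 and 3.23 ± 0.372 at F3, and its call (-1.12 ± 0.224) was not made with library sizes implied by FPKM (-1.0).

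The lists of genes that work beside the family were described in the same way, and are to be read against the 18.8% of all clusters that fell and 22.0% that rose for F2 over F1, and the 35.8% and 29.5% for F3 over F2. Of 112 clusters of wax synthesis, 78 fell and 4 rose for F2 over F1, and 63 fell and 6 rose for F3 over F2. Many of these clusters share a number, such as Cluster-33610, so the lists may hold fewer genes than clusters. The most abundant were the 3-ketoacyl-CoA synthases Cluster-36072.0, with 451 FPKM at F1, 131 at F2 and 3.4 at F3, and Cluster-23854.0, with 335, 201 and 28.3, which lengthen the fatty acids of waxes. Of 21 clusters of cutin and suberin synthesis, 17 fell and 1 rose for F2 over F1, and 11 fell and 6 rose for F3 over F2. The most abundant was a cytochrome P450 86B1 (Cluster-58065.0), with 93.2 FPKM at F1, 114 at F2 and 19.2 at F3. It was not called for F2 over F1. Next in level, protein HOTHEAD (Cluster-22304.0), which oxidises cutin acids in Arabidopsis, had 78.8 FPKM at F1, 49.6 at F2, and 0.0167 at F3.

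Of 15 ABC transporters of the group that exports cuticle and suberin lipids, 7 fell and 2 rose for F2 over F1, and 9 fell and 5 rose for F3 over F2. The most abundant, an ABC transporter G family member 1 (Cluster-53799.2), had 39.3 FPKM at F1, 57.4 at F2 and 4.57 at F3. All 8 clusters of other proteins of the cysteine-rich fold fell for F3 over F2, but most of them share the number Cluster-47992 and may be variants. Among them was a proline-rich protein (Cluster-47992.14), with 710 FPKM at F1, 496 at F2, and 3.75 at F3. Of 49 intracellular lipid carriers, 13 fell and 4 rose for F2 over F1, and 20 fell and 11 rose for F3 over F2. Their most abundant, an acyl-CoA-binding protein (Cluster-38792.0), had 355 FPKM at F1, 118 at F2 and 76.1 at F3. Of 17 partners of systemic acquired resistance, 6 fell and 1 rose for F2 over F1, and 1 fell and 6 rose for F3 over F2. The most abundant, a pathogenesis-related protein 1 (Cluster-16264.0), went against these counts, with 20.4 FPKM at F1, 69.7 at F2 and 15.8 at F3. It was called higher for F2 over F1 (log2 fold change 1.82) and lower for F3 over F2 (-2.30). The median log2 fold change for F3 over F2 was -2.51 for wax synthesis, -1.16 for cutin and suberin synthesis and -2.86 for the export transporters. It was -7.80 for the cysteine-rich fold, -0.40 for the intracellular carriers and 0.90 for the resistance partners, beside -0.37 over all clusters.

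Markers of leaf cell types also moved between the stages. The summed FPKM of 5 epidermis markers ran between 48.2 and 58.3 at F1, 9.96 and 10.8 at F2, and 5.4 and 5.88 at F3, with 0 of the 5 at 0 counts in any stage. Protodermal factor 1 (Cluster-37066.0), an epidermal protein, had 0.08 FPKM at F2 and 0.177 FPKM at F3, against 39.0 FPKM at F1. Most of the fall of the epidermis sum for F2 over F1 lay in this 1 cluster. Over the same step ANTHOCYANINLESS 2 (Cluster-54080.1) went from a mean of 7.72 to 5.68 FPKM. PROTODERMAL FACTOR 2 (Cluster-18194.0) went from 3.82 to 2.24 and HDG11 (Cluster-50808.0) from 2.66 to 1.36. HDG2 (Cluster-40553.3) was higher in the later stage, with 1.01 FPKM against 0.53. The 11 epidermal and cuticle regulators counted 3 that fell and 1 that rose for F2 over F1, and 6 and 0 for F3 over F2, with a median log2 fold change of -1.71 in that comparison. The 14 xylem markers summed to between 84.7 and 100.3 FPKM at F1, 25.0 and 31.7 at F2, and 0.90 and 1.65 at F3, where 6 of the 14 were at 0 counts, and the 47 mesophyll markers to between 70970 and 74880 FPKM at F1, 103000 and 104500 at F2, and 34160 and 35930 at F3. The 13 phloem markers summed to between 106.7 and 121 FPKM at F1, 36.42 and 44.4 at F2, and 31.9 and 38.7 at F3, and the 13 cell division markers to between 518 and 617, 179 and 189.5, and 254 and 259. The part of these cell types in the fall of the lipid-transfer proteins was not tested.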

How the data were processed

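RNA of leaves was sequenced in 9 libraries, 3 per stage. The authors assembled transcripts into clusters and deposited 1 table. Its raw counts per cluster and library were made by the authors from the reads. The authors also deposited FPKM, the counts scaled for library size and for an effective transcript length. The assembler, aligner and counter are not named in the sources used, and the labels name mouse genome builds, of another species. The authors' columns of log2 fold changes, p-values and adjusted p-values between stages were not used. No sequences or genome were used here.

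Counts were fitted with edgeR 4.0.16 in R 4.3.3 (glmQLFit and glmQLFTest, TMM scaling, 1 model of all libraries with stage as factor, no filter), with Benjamini-Hochberg adjustment over 24385 clusters, after a test on simulated data. Errors of log2 fold changes are standard errors. Replicates differed by more than sampling noise (chi-square per degree of freedom between 5.8 and 12.6). Counting intervals and floors cover counting error only. Alternatives were DESeq2 1.42.0, RLE scaling, library sizes implied by FPKM, limma 3.58.1 on log2(FPKM + 1) and log2(FPKM + 0.1), a filter at 1 FPKM, the 2 stages alone, a replicate block, no fold threshold, numbers summed (all clusters, or members alone), and each library left out.

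Named were the members whose mean reached 10 FPKM in a stage, those called in all 3 comparisons or sharing a number with a named member, and the 5 clusters most correlated with Cluster-50246.0. Of each of 7 lists, the most abundant by mean FPKM over the stages were named. The members and lists were chosen with earlier results of these data known, list patterns were trimmed of wrong protein names after the names were seen, and the test between both steps and the sum over members alone were added after seeing the data.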

Additional observations from a re-analysis of the deposited data

How the results depend on the processing

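The counts of members called kept within 1.5 times under every alternative but the 2 that sum clusters by number. With all clusters of a number summed, members or not, 0 of 22 numbers rose for F2 over F1, 3 rose for F3 over F1 and 11 fell for F3 over F2. The second change was lower than the first in 8 numbers and higher in 9. In that sum Cluster-35610, which takes in the clusters matched to other proteins, was at -1.87 for F3 over F1 and called, against 1.75 and called with its members alone. With only the members of a number summed, an alternative chosen after seeing the data, 0 rose for F2 over F1 and 10 fell for F3 over F2. In that sum 7 had a lower second change and 10 a higher one. Both sums thus held more numbers with a higher than with a lower second change, unlike the single clusters. Over the settings that leave out 1 library, the members that fell numbered 16 to 17 for F2 over F1, 24 to 24 for F3 over F1 and 17 to 18 for F3 over F2, those that rose stayed at 1, 5 and 6, and the second change was lower in 12 to 13 and higher in 9 to 10. Of 89 fold changes of single members between stages, 76 kept their direction and call in all 17 alternatives run for them, and of 22 differences between the steps, 18 did so in 16.

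The replicate numbers did not pair the libraries (correlations of deviations from the stage means between -0.02 and 0.03), and the replicate block gave 16, 24 and 17 members that fell and 1, 5 and 6 that rose for F2 over F1, F3 over F1 and F3 over F2. RLE scaling moved the median over all clusters by -0.17 for F2 over F1 and 0.18 for F3 over F2.

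The changes that turned sign were all close to 0 and not called. For F2 over F1, Cluster-8218.2 was at -0.14 with DESeq2 and RLE scaling, -0.02 with library sizes implied by FPKM, both limma fits and the 2 stages alone, and -0.04 to 0.06 with 1 library left out, and Cluster-56322.2 was at -0.02 with DESeq2 and RLE scaling. For F3 over F2 with 1 library left out, Cluster-36611.0 was at -0.26 to 0.58 and Cluster-30929.0 at -0.17 to 0.33. The second minus the first change of Cluster-34286.0 was 0.19 with DESeq2 and RLE scaling, 0.05 with implied library sizes, 0.51 and 0.11 with limma, and -0.35 to 0.05 with 1 library left out. The cause was not tested. That of Cluster-31413.0 (-1.06) was not called with DESeq2 (-0.71), RLE scaling (-0.70), implied library sizes (-0.85) or limma (-0.35 and -0.80), nor without F1 replicate 3 (-0.98), F2 replicate 1 (-0.94) or F3 replicate 2 (-0.90), nor that of Cluster-46647.0 (4.45) without F2 replicate 3 (4.0), F3 replicate 2 (4.47) or F3 replicate 3 (3.56). Depth limits the members with few counts in a stage, where the fold is a bound or has a wide interval.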
